A study of Mus musculus with 8 samples.

Results

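Genes whose symbol is "Gm" followed by a number are mouse gene models that the nomenclature committee lists without a descriptive name, most of them long non-coding RNAs. The regions described here are the Pax6 binding sites annotated to such genes in alphaTC1, a glucagon-making line of mouse pancreatic alpha cells. They were chosen by the gene symbol alone, as every site whose nearest-gene symbol, as given by the authors' deposited table, is "Gm" and digits with nothing after them. This gave 896 of 26244 sites, annotated to 351 of 10198 gene symbols.

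Pax6 was assayed by chromatin immunoprecipitation with sequencing (ChIP-seq) with 2 Pax6 libraries in each of 2 groups. One group had received antisense oligonucleotides with a scrambled sequence (control KD). The other had received oligonucleotides against Paupar, a long non-coding RNA transcribed beside Pax6 (Paupar KD). The design text calls the samples biological duplicates and gives no genotype or time. The comparison asks whether Pax6 occupancy changes when Paupar is knocked down. Sites were also annotated to genes of alpha cells, with 5 at Gcg, which encodes the glucagon precursor, 26 at Irx1 and 3 at Irx2.

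Pax6 is a transcription factor with a paired domain and a homeodomain, and endocrine cells of the islet need it. Transcription factors of this kind bind at promoters and at enhancers that can lie far from the gene they act on, also inside other genes. An annotation to the nearest gene therefore names a neighbour and not a target. RNA was not measured in this series, so nothing here says whether a Gm gene was transcribed.

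The authors' deposited table gives one concentration per site and group, a mean over the libraries that was read as a log2 normalised signal, and it gives neither a value per library nor a standard error. Signal changes are therefore given as Paupar KD minus control KD with the authors' false discovery rate (FDR). A site was called higher or lower when that FDR was below 0.05. The values per library come from the peak summits of each library, counted at a site when they lay within 250 bp of its middle. The 4 summit lists differed in length, from 9983 summits in control KD replicate 2 to 17942 in Paupar KD replicate 2.

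Pax6 sites nearest Gm genes lay mostly away from promoters. By the annotation of the authors' deposited table, 447 of the 896 sites (49.9%) were distal intergenic, against 28.9% of all sites and 44.9% of the 1808 sites nearest genes with RIKEN clone names (Rik), another class of sparsely named genes. Introns held 249 sites (27.8% against 36.8%), promoters, taken as up to 3 kb from a start, 141 (15.7% against 27.5%) and exons 43 (4.8% against 3.46%). Among the intronic sites, 83 lay in an intron of the annotated Gm gene itself, 103 in an intron of another gene and 63 in a transcript without a gene identifier. With only the strongest site of each gene the promoter share was 26.5%, against 43.8% over the genes of all sites. The authors' deposited table put the median site 25.3 kb from the annotated start, against 11.8 kb over all sites and 20.5 kb for the Rik sites. Only 80 sites (8.93% against 19.4%) were within 1 kb of the start, and 276 (30.8% against 18.6%) were over 50 kb away. Rik sites were similar, with 12.9% within 1 kb, 29% over 50 kb away and 18.7% at promoters.

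**Figure D1:**
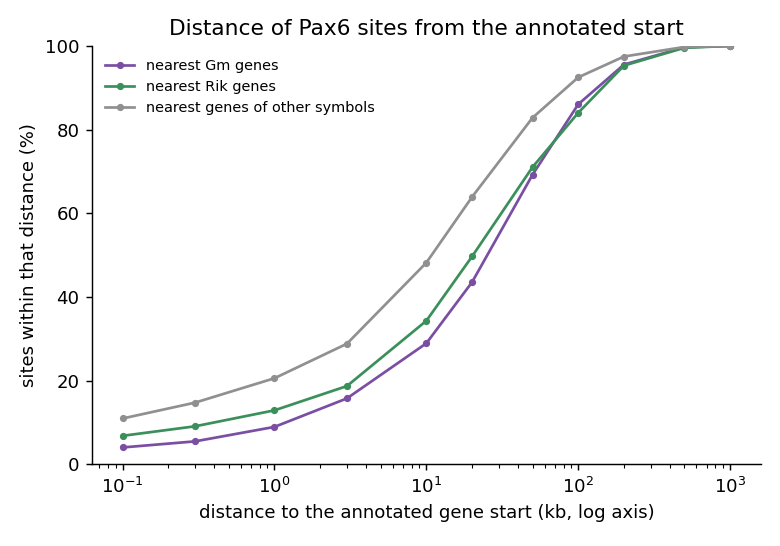
Share of Pax6 sites (vertical axis, %) within a given distance of the annotated gene start (horizontal axis, kb, log scale) for sites nearest Gm genes, Rik genes and genes of other symbols. The Gm curve lies below the other-symbol curve up to 200 kb, with 8.93% of Gm sites within 1 kb against 20.6%.

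The neighbourhood was also poor in named protein-coding genes. By RefSeq gene bounds (GRCm38.p6), 155 of the 896 sites (17.3%) lay inside such a gene, against 56% of all sites and 16.9% of Rik sites. The median Gm site lay 56.7 kb from the nearest named coding gene, while the median over all sites was 0 kb, that is, inside one, and the median Rik site lay 47.2 kb away. Sites were selected by their nearest gene, so this contrast is a description of the selected set and not an independent result. By RefSeq gene type, 760 sites fell to 272 long non-coding RNA genes, 79 to 52 protein-coding genes and 57 to 27 transcribed pseudogenes. RefSeq lists 4 of the genes (5 sites) under another symbol. Chromosome 4 held 11.8% of the Gm sites and 7.30% of all sites, chromosome 10 held 8.93% and 4.74%, and chromosome 12 held 7.37% and 3.69%. Other chromosomes went the other way, such as chromosome 5 with 3.79% and 7.12%.

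The sequences of a few sites can be shown, because they lie wholly inside the promoter windows that RefSeq gives for GRCm38.p6, each from 250 bases before to 50 bases after a gene start. Of the 351 Gm genes, 271 had such a window, and 18 Gm sites lay inside a window of some gene. At 6 of these 18 sites the window belonged to a named protein-coding gene, so those 100 bases are start region of a named gene. The 6 sequences below are chosen after their values were seen, to show both cases. They are on the plus strand of mm10, 5′ to 3′, with every CG dinucleotide in capitals and coordinates counted from 1. The first lies at chr9:21411689-21411788, in the windows of Gm16853 and Qtrt1. The second lies at chr10:88731165-88731264, in the windows of Gm4925 and Arl1. The third, at chr1:93305878-93305977, is shared by Gm28535 and Mterf4, and the fourth, at chr2:129297283-129297382, by Gm14023 and Ckap2l. The fifth, at chr5:149006809-149006908, is shared by 2 Gm genes, Gm15408 and Gm15411, and the sixth, at chr3:129532383-129532482, belongs to Gm35986 alone.
Gm16853: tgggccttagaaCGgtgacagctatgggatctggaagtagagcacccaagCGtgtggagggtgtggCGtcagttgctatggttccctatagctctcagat
Gm4925: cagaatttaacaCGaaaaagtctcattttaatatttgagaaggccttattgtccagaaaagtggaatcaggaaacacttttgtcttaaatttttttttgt
Gm28535: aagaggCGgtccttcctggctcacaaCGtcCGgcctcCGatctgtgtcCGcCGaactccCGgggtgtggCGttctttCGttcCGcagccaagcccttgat
Gm14023: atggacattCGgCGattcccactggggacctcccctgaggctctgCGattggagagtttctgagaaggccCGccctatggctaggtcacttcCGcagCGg
Gm15408: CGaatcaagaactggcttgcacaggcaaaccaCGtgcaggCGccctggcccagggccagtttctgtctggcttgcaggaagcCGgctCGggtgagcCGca
Gm35986: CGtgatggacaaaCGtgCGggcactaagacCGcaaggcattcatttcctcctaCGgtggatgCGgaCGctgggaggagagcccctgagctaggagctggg

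These start regions differ widely in base composition. The Gm4925 site is 29% G and C with 1 CG dinucleotide and has long runs of A and T, whereas the Gm28535 site is 63% with 10. Over the 18 sites the median was 59.5% G and C and 2.5 CG dinucleotides, against 59% and 6 over the 1227 sites of any gene that lie inside a window. A paired-domain core (TCACGC, and the longer TTCACGC that contains it) and the palindromic homeodomain core TAATTA were searched on both strands. The share of all 1227 sites with a match was 3.75%, 1.06% and 0.733%. Over all 32851 promoter windows of 300 bases it was 6.68%, 1.26% and 5.29%. The windows are longer than the sites and have more room for a match, and the shares were not adjusted for length. These shares therefore do not show whether a core is rarer or more frequent in the sites than in the windows. None of the 18 Gm sites held a match to any of the 3 sequences searched, a count that allows a share of up to 16.7%.

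None of the 18 sites was called by the authors' DiffBind test, and 4 (22.2%) had an unadjusted p below 0.05, against 3.91% and 21.2% of the 1227 sites inside a window. The concentration was lower after Paupar KD than in control KD at 16 of the 18 (88.9%), against 79.7% of the 1227, so these shares are near those of start regions in general. The authors' deposited table gave the Gm4925 site 6.64 in control KD against 6.18 in Paupar KD (log2 concentration, FDR 0.542), and it had a summit in all 4 libraries. At the Gm16853 site the authors' deposited table had 6.66 and 6.28 (FDR 0.596), with summits in control KD replicate 1 and Paupar KD replicate 2 only. The Gm14023 site had 5.87 and 4.89 by the authors' deposited table (FDR 0.236), and the Gm35986 site had 6.35 and 5.48 (FDR 0.18).

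Pax6 signal at the Gm sites was close to that at all sites. The median concentration by the authors' deposited table was 4.195 in control KD and 4.42 in Paupar KD at the Gm sites, against 4.34 and 4.48 over all sites. The strongest Gm site was annotated to Gm13016 on chromosome 4 (chr4:140433939-140434038), 53.3 kb from its start, with 9.49 in control KD against 8.67 in Paupar KD by the authors' deposited table. The next were a site annotated to Gm14204, just downstream of a gene and nearest to Slc32a1, the vesicular GABA transporter gene (9.28 and 8.55), and one at Gm19510 (9.04 and 8.75), whose nearest named coding gene was Trib1, a pseudokinase gene, all by the authors' deposited table. The fourth was at Gm20554 (8.59 and 8.11 by the authors' deposited table), and its nearest named coding gene was Irx2, a homeobox gene of alpha cells. The fifth was a site 1.46 kb from the start of Gm12409 (8.56 and 8.07 by the authors' deposited table). All 5 had a summit in every library. Of these 5, only the Gm13016 and Gm14204 sites were called, both lower.

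Sites within 1 kb of a Gm start reached lower signals than these 5 sites. The strongest 3 were at Gm13056 (8.0 in control KD against 7.43 in Paupar KD, FDR 0.148), Gm16364 (7.88 and 7.44, FDR 0.324) and Gm16537 (7.70 and 7.50, FDR 0.789) by the authors' deposited table. Each had a summit in all 4 libraries, and none was called. Among the transcribed pseudogenes the strongest sites were at Gm8096 (6.22 and 7.75 by the authors' deposited table) and Gm5424 (6.09 and 5.76). Among the protein-coding Gm genes they were at Gm5820 (6.87 and 6.10, FDR 0.263) and Gm815 (6.83 and 6.17, FDR 0.759), by the authors' deposited table.

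After Paupar KD, 37 Gm sites at 34 genes were called higher and 9 sites at 8 genes were called lower. These are 4.35% and 1.06% of the 851 Gm sites that were read as part of the authors' adjustment. Over all 25234 adjusted sites 3.39% were called higher and 0.88% lower, so both shares are near the background. Higher sites made up 80.4% of the Gm calls and 79.4% of all calls. The median log2 change by the authors' deposited table was 0.08 over the Gm sites and -0.03 over all sites, with 53.1% and 48.5% of sites above 0. With only the strongest site of each gene the Gm median turned to -0.07, against -0.23 over the genes of all sites. At an FDR below 0.1 the Gm shares were 6.93% higher and 1.76% lower, against 5.19% and 1.87% over all sites. At an FDR below 0.01 they were 1.88% and 0.47%, against 1.45% and 0.143%. At an unadjusted p below 0.05 from the authors' deposited table, 14% of the 896 sites were higher and 5.58% lower, against 10.7% and 6.67% of all sites.

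**Figure D2:**
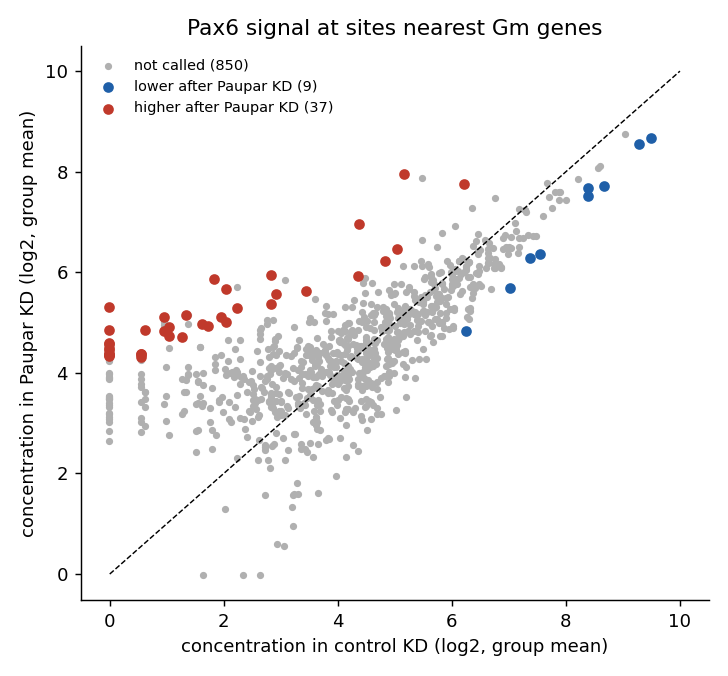
Log2 concentration of the 896 Gm sites in Paupar KD (vertical axis) against control KD (horizontal axis), each point a site and each value the authors' mean of a group, with the line of equal values dashed. The 37 higher sites lie mostly at low control KD values, 10 of them at the floor, and the 9 lower sites lie between 6.25 and 9.49 in control KD.

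Most higher sites were weak in control KD. Their median concentration by the authors' deposited table was 1.26 in control KD against 4.98 in Paupar KD, and 10 of the 37 were listed at the floor of -0.01 in control KD. Over all 855 higher sites the medians were 2.20 and 5.29, and 119 were at the floor in control KD. The 27 higher sites above the floor changed by a median of 3.21 (log2) according to the authors' deposited table. Of the 37, 25 were distal intergenic and 11 intronic, and the only promoter site, at Gm19522, lies inside the transcription factor gene Zbtb20. Of all 855 higher sites, 332 were distal intergenic, 367 intronic and 113 at promoters. The 37 higher Gm sites lay a median of 56 kb from the annotated start, and 35 were over 10 kb away. Over all Gm sites the median was 25.3 kb, and 71.1% were over 10 kb away. Among all Gm intergenic sites 5.94% were called higher, against 4.57% of all intergenic sites, and among promoter sites 0.725% against 1.60%.

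The library summits describe the higher sites library by library. The calls come from the authors' DiffBind test, but that test and the summits rest on the same libraries. The summits are therefore a description and no independent support for the calls. At 30 of the 37 higher sites neither control KD library had a summit. Such sites may have entered the table through the Paupar KD libraries alone, which was not tested. At 16 of the 37 higher sites both Paupar KD libraries had a summit and neither control KD library did. At 11 the only summit was in Paupar KD replicate 1, and at 3 it was in Paupar KD replicate 2 alone. Another 5 had a summit in all 4 libraries, and 2 had one in some of the libraries of both groups. Over all sites, 417 of 855 higher sites had summits in both Paupar KD libraries only and 206 in Paupar KD replicate 1 alone. Another 8 of the 855 had a summit in no library. Without the sites whose only summit is in Paupar KD replicate 1, the count of higher Gm sites is 26, and with summits in at least 2 libraries it is 23.

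The higher site with the lowest FDR was at Gm16630, a long non-coding RNA gene on chromosome 6 (chr6:48366500-48366599). It is distal intergenic, 28.8 kb from the Gm16630 start and 28.1 kb from Krba1, and the authors' deposited table gave 4.37 in control KD against 6.96 in Paupar KD (log2 change 2.60, FDR 1.71e-07). Control KD replicate 2 and both Paupar KD libraries had a summit there. The next, intergenic at Gm15706 (chr6:145267516-145267615), went from 1.82 to 5.87 by the authors' deposited table (FDR 8.06e-06), with summits in the Paupar KD libraries only. Sites in introns at Gm30790 (2.04 to 5.66, FDR 0.000187) and Gm30606 (2.83 to 5.95, FDR 0.000244) had the same pattern of summits, with values from the authors' deposited table. The nearest named coding gene to the latter was Gnao1, 135 kb away, which encodes a G-protein alpha subunit.

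At Gm8096, a transcribed pseudogene on chromosome 8, the called site (chr8:28239595-28239694) had a summit in all 4 libraries. The authors' deposited table had 6.22 there in control KD and 7.75 in Paupar KD (log2 change 1.53, FDR 0.000391). The summit scores, which are the authors' own and were read as −log10 of a q-value, were 85.9 and 29.3 for control KD, against 205 and 161 for Paupar KD. Scores come from lists of different lengths, so here and below they are given as a description and not compared between libraries. The other 3 Gm8096 sites had log2 changes of 0.61 to 0.94 by the authors' deposited table, and none passed the threshold. The gene Unc5d, a netrin receptor gene, was the nearest named coding gene, 407 kb from the called site.

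Gm34068 on chromosome 1 had the most sites of any Gm gene, 23 over 234 kb, and 2 were called higher. One lies in its own first intron (chr1:183764303-183764402), 15.3 kb from the start. There the authors' deposited table gave 5.16 in control KD against 7.96 in Paupar KD (log2 change 2.80, FDR 0.00282), the highest Paupar KD value of the higher Gm sites. Its summit scores were 10.6 and 7.63 in control KD and 214 and 167 in Paupar KD. The other called site, 56 kb upstream, went from 1.34 to 5.16 by the authors' deposited table (FDR 0.003), its lone summit coming from Paupar KD replicate 1. Of the 23 sites 14 had a log2 change above 0, and 13 had a summit in a single library. The nearest named coding genes were Dusp10, a phosphatase gene of the MAP kinase pathway, and Hhipl2, 270 kb from the intronic and 256 kb from the upstream called site.

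Gm10400 on chromosome 6 had the most higher sites, 3 of its 4. All 4 lie in the first intron of Pde3a, which encodes a phosphodiesterase that breaks down cyclic AMP, over 45.3 kb. The authors' deposited table listed the first at the floor, -0.01, for control KD against 5.30 for Paupar KD (FDR 0.00169), with its only summit in Paupar KD replicate 1. The second went from 0.55 to 4.37 by the authors' deposited table (FDR 0.0311), with its only summit in Paupar KD replicate 2. The third went from 2.92 to 5.56 (FDR 0.00675), and the authors' deposited table had 1.84 and 4.31 at the fourth (FDR 0.154). None of the 4 had a summit in all 4 libraries.

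The other higher sites among the 20 with the lowest FDR were at 11 long non-coding RNA genes with 1 such site each. By the authors' deposited table, Gm2109 went from 0.95 to 5.11 and Gm16701 from 0.61 to 4.86, each with a summit in a single Paupar KD library. Gm33035 was listed at the floor for control KD with 4.86 for Paupar KD, and Gm32885 at the floor with 4.58, by the authors' deposited table. Sites at Gm12610 (1.04 to 4.91), Gm5084 (2.24 to 5.29), Gm8817 (0.95 to 4.83) and Gm17746 (2.04 to 5.01) had summits in both Paupar KD libraries and in neither control KD library, with values from the authors' deposited table. The Gm10440 site, with the same summits, was the farthest of all Gm sites from its annotated start, 786 kb, and went from 1.61 to 4.98 by the authors' deposited table. At Gm11266, in an intron that the annotation gives to the transcription factor gene Nfib, the authors' deposited table had 3.45 and 5.62. At Gm4668, with summits in all 4 libraries, it had 5.04 and 6.46 (log2 change 1.42, FDR 0.0172).

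The 9 lower sites were strong sites found in every library. All 9 were at long non-coding RNA genes, had a summit in all 4 libraries and lay in the highest quartile of mean concentration. Such genes held 723 of the 851 adjusted Gm sites, so the gene type is largely that of the whole set. Over all sites, 188 of the 222 lower sites (84.7%) lay in that quartile and 127 (57.2%) had a summit in all 4 libraries. With summits matched within 50 bp, 7 of the 9 Gm sites and 78 of the 222 had one in all 4. Their control KD values ran from 6.25 to 9.49 and their Paupar KD values from 4.83 to 8.67, with log2 changes of -1.42 to -0.72 by the authors' deposited table. Within that quartile 4.48% of the Gm sites were called lower, against 2.88% of all sites. Of the 9, 3 were distal intergenic, 4 intronic, 1 at a promoter and 1 just downstream of a gene.

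Of the lower sites, 3 lie within a stretch of chromosome 4 that holds Gm13029, Gm13016 and Igsf21, which encodes an adhesion protein of the immunoglobulin superfamily. This stretch was chosen after its values were seen. Gm13029 had 12 sites, 11 of them in introns and 1 at a promoter, and 2 intronic sites were called, both within introns of Igsf21. At the first (chr4:140117486-140117585, intron 2 of Igsf21) the authors' deposited table had 8.66 in control KD against 7.71 in Paupar KD (log2 change -0.95, FDR 0.00167). Its summit scores were 208 and 115 in control KD and 117 and 109 in Paupar KD. At the second (chr4:140187908-140188007, intron 1) the authors' deposited table had 7.55 and 6.36 (log2 change -1.19, FDR 0.00192), with scores of 64.4 and 21.1 against 30.3 and 35.2. The third is the Gm13016 site, the strongest of all Gm sites (log2 change -0.81, FDR 0.00337, from the authors' deposited table).

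All 6 Gm13016 sites had a negative log2 change by the authors' deposited table, from -1.24 to -0.72, although only 1 passed the threshold. Of the 12 Gm13029 sites 8 were below 0, with a median of -0.58. Over the 383 kb from the first Gm13029 site to the last Gm13016 site there were 29 sites of any gene. Of these 29, by the authors' deposited table, 21 were below 0, 3 were called lower and 0 higher. By the authors' DiffBind test 4 of the 29 had an unadjusted p below 0.05. The background was 13401 of all 26244 sites below 0, and 0.88% of the adjusted sites called lower. The stretch was chosen after its values were seen, so these counts are a description and no test of a regional change. The 11 sites annotated to other than Gm genes held 0 calls by the authors' DiffBind test and 1 site with an unadjusted p below 0.05, with a lowest FDR of 0.223 by the authors' deposited table, and 7 of the 11 were below 0.

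The other 6 lower sites lay on 6 chromosomes. At Gm29678 (chr1:190380282-190380381), the authors' deposited table had 7.02 in control KD against 5.68 in Paupar KD (log2 change -1.34, FDR 0.00421), and the nearest named coding gene, Prox1, a homeobox gene, lay 210 kb away. The strongest site of the same gene had 5.48 and 7.87 and was not called (FDR 0.141 by the authors' deposited table). The site at Gm46545, 177 kb from the repressor gene Bcl6, went from 8.39 to 7.52 (FDR 0.0104), and that at the Gm805 promoter, 4.73 kb from the cilia gene Ift43, from 7.37 to 6.29 (FDR 0.0157), by the authors' deposited table. The largest fall was at Gm5091 on chromosome 17, from 6.25 to 4.83 (log2 change -1.42, FDR 0.0209 by the authors' deposited table). The Gm14204 site (FDR 0.0345) and an intronic site at Gm10637 (8.39 to 7.67, FDR 0.0404 by the authors' deposited table) had the smallest falls, -0.73 and -0.72 on the log2 scale.

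No Gm gene had called sites in both directions. Of the 351 genes 185 (52.7%) had 1 site, and the 53 genes with 5 or more sites held 412 sites (46%). Calls fell on 42 genes, and only Gm34068, Gm10400 and Gm13029 had more than 1. The genes with the next most sites after Gm34068 had none by the authors' DiffBind test, and 2 sites of Gm833 and 1 of Gm11468 had an unadjusted p below 0.05. Gm833 had 16 sites over 271 kb on chromosome 4 with log2 changes of -2.34 to 1.33, and Gm11468 had 15 on chromosome 2 with -1.65 to 1.07, by the authors' deposited table. Gm20554, whose 9 sites run over 322 kb up to Irx2, also had no call, with 2 sites at an unadjusted p below 0.05. Its second strongest site, 180 kb from the Gm20554 start, had 7.67 and 7.78 by the authors' deposited table (FDR 0.878), with a summit in every library.

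**Figure D3:**
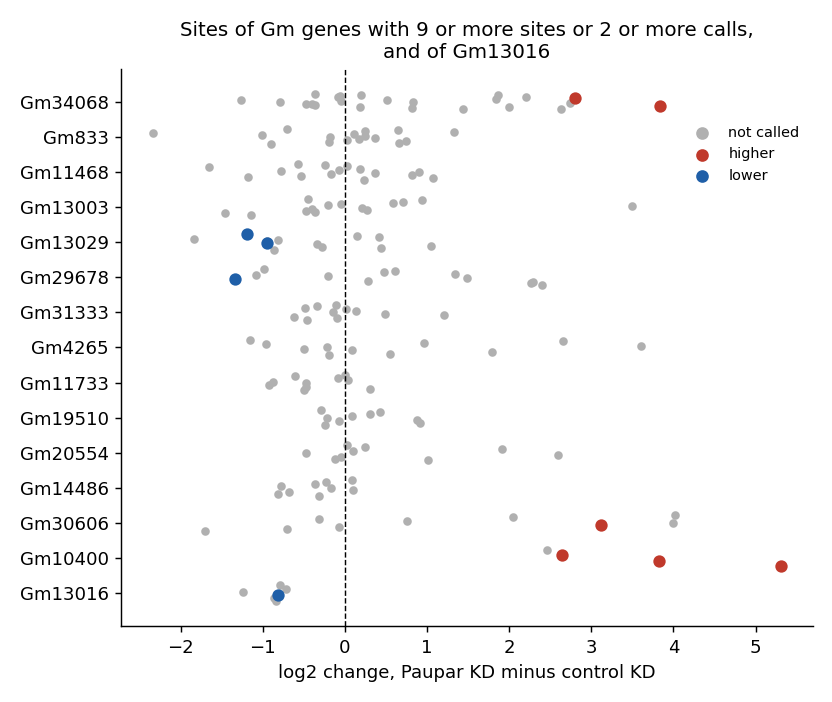
Log2 change of each site (horizontal axis, Paupar KD minus control KD, authors' values) for the Gm genes with 9 or more sites or 2 or more calls, and for Gm13016 (rows, with the sites of a gene set apart vertically in genome order). All 4 Gm10400 sites lie above 2 (1 of them at the floor in control KD), all 6 Gm13016 sites lie below 0, and most other genes have sites on both sides of 0.

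The direction of change went with the strength of the site. In the lowest quartile of mean concentration the median log2 change of the Gm sites was 0.915 by the authors' deposited table, and in the following quartiles it was 0.255, 0.00 and -0.27. Over all sites the medians were 0.72, 0.20, -0.12 and -0.36. Sites at the floor are included with the authors' values, and without them the Gm medians were 0.79, 0.23, 0.00 and -0.27, against 0.58, 0.19, -0.12 and -0.36. The difference between Gm sites and all sites was not tested. Within the highest quartile 5 Gm sites were called higher (2.49%) and 9 lower (4.48%), while over all sites of that quartile the calls were about even, with 196 higher (3%) and 188 lower (2.88%). The part of library depth in this pattern was not tested, since the depths are unknown. In the lowest quartile 81.3% of the Gm sites and 84% of all sites had a summit in a single library. Over all sites, 3404 and 4337 had their only summit in Paupar KD replicate 1 and 2. In control KD replicate 1 and 2 the counts were 2634 and 1136. How far the entry of weak sites through single libraries set their direction was not tested. By gene type the median log2 change was 0.055 for long non-coding RNA genes, 0.10 for protein-coding genes and 0.61 for the 57 sites at pseudogenes, 42.1% of which lay in the lowest quartile.

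**Figure D4:**
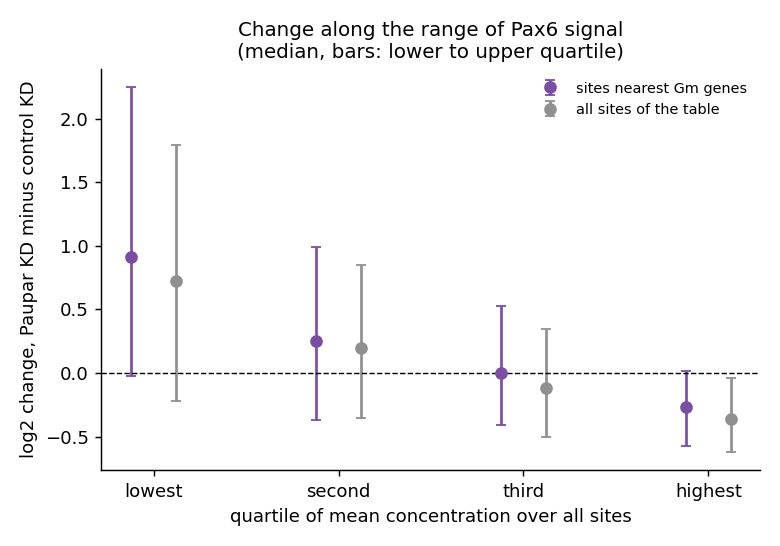
Median log2 change (vertical axis, points, with bars from the lower to the upper quartile of sites) of Gm sites and of all sites in each quartile of mean concentration (horizontal axis, bounds at 3.61, 4.42 and 5.38 over all sites). The Gm medians fall from 0.915 in the lowest quartile to -0.27 in the highest, beside 0.72 and -0.36 over all sites.

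More Gm sites had a summit in the Paupar KD libraries than in the control KD libraries. The numbers were 448 and 349 in control KD and 536 and 556 in Paupar KD. The groups did not overlap, and the means were 398.5 ± 70.0 and 546 ± 14.1 (SD, n = 2 each), a ratio of 1.37. An exact permutation test (two-sided) gave p = 0.33, the smallest p that 4 libraries allow. All sites gave nearly the same ratio, 1.39. As a share of the sites matched in each library, Gm sites were 3.42% and 3.82% in control KD and 3.76% and 3.36% in Paupar KD, and the groups overlapped (exact permutation p = 0.67). With each list limited to its 9983 best summits the ratio was 1.05 (exact permutation p = 0.67).

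**Figure D5:**
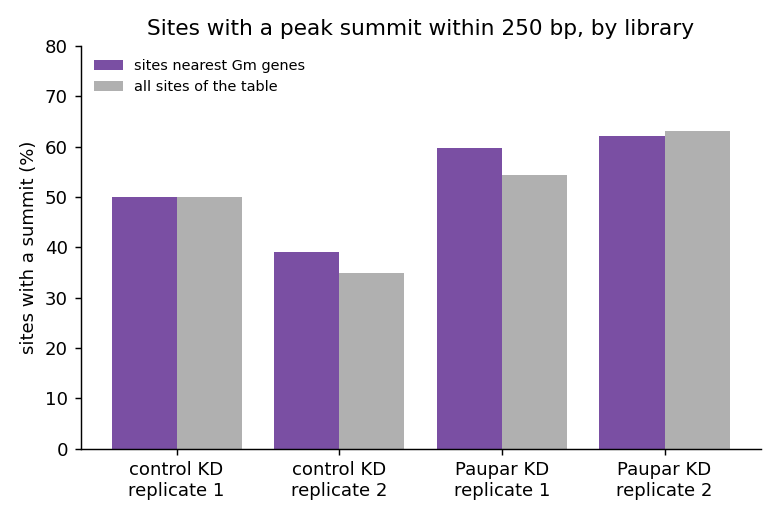
Share of Gm sites and of all sites with a summit within 250 bp (vertical axis, %) in each of the 4 Pax6 libraries (horizontal axis). Gm sites range from 39.0% in control KD replicate 2 to 62.1% in Paupar KD replicate 2, and all sites from 34.9% to 63.1%.

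Most Gm sites lacked a summit in at least 1 library. All 4 libraries had one at 200 sites (22.3% against 20% of all sites), a single library at 378 (42.2% against 43.9%) and none at 23. When the summit had to lie within 50 bp, all 4 libraries had one at 74 sites only (8.26% against 6.50% of all sites). Paupar KD replicate 1 alone accounted for 147 Gm sites (16.4% against 13% of all sites), and Paupar KD replicate 2 alone for 121 (13.5% against 16.5%). Summits were exclusive to the Paupar KD pair of libraries at 74 sites (8.26% in both sets), and to the control KD pair at 19 (2.12% against 1.47%). Of those 74 sites 16 (21.6%) were called higher, against 19.2% of all sites with that pattern. By the authors' DiffBind test 0 of the 19 were called lower, against 3.64% of all such sites, and 4 of the 19 (21.1% against 23.4%) were lower at an unadjusted p below 0.05. Both sets were picked by summits in 1 group, so the direction of their calls was largely set in advance. These shares are a description only.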

How the data were processed

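Pax6 ChIP-seq libraries of alphaTC1 cells (2 control KD, 2 Paupar KD) were analysed from the deposited files, leaving out the 4 input libraries. The submitters' processing notes name Bowtie2, MACS2, DiffBind and ChIPseeker (no versions given) and the build mm10. How DiffBind normalized and tested is not given in the sources used here. Read depth is unknown, which leaves the values without counting intervals.

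The authors' deposited table holds 26244 sites of 100 bp with log2 concentrations per group, a log2 fold (control minus Paupar, sign turned here), and the authors' p-value and FDR. The log2 scale is not stated: it was read from the fold, which equals the difference of the concentrations within 0.01. No test of sites was run here, because the deposited values are group means. The authors' adjustment was read as covering 25234 sites, which the sources do not state. Sites listed with the highest possible FDR despite a smaller p-value were taken to lie outside it, 45 Gm sites among them. Concentrations at or below 0 are called the floor: no log2 change is printed for such a site, but medians, quartiles and figures include it with the authors' value. Each library's deposited summits carry a score of the authors, read as −log10 of a q-value from its lowest values (2.00 to 2.01); a library supported a site with a summit within 250 bp. Group counts per library were compared by an exact permutation test, checked on a case with a known answer. The summit matching was checked on simulated data. Replicate numbers do not pair the libraries by label.

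Named sites are every lower site, the 20 higher sites with the lowest FDR, the 5 strongest, the 3 genes with most sites, the 3 strongest within 1 kb of a start, the 2 strongest of each gene type, and genes with 2 or more calls. The members and these lists were chosen with earlier results of these data known. Gene types and gene bounds are from RefSeq GRCm38.p6, in which all 896 Gm sites were matched by gene ID; sequences are from its promoter windows. Alternatives varied the threshold, the sites kept, the summit distance and score, and the libraries. Python 3.11.15, pandas 2.3.3 and numpy 2.4.6 were used.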

Additional observations from a re-analysis of the deposited data

How the results depend on the processing

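The count of higher Gm sites was 37. It was 59 at an FDR below 0.1, 16 at an FDR below 0.01, 125 at an unadjusted p below 0.05, 17 within 50 kb of the annotated start and 23 with a summit in at least 2 libraries. It was 27 without sites at the floor, and, in settings chosen after seeing the data, 26 or 34 without sites whose only summit was in Paupar KD replicate 1 or replicate 2. The count of lower sites was 9. It was 15 at an FDR below 0.1, 4 at an FDR below 0.01 and 50 at an unadjusted p below 0.05, but 7 within 50 kb and 9 with 2 or more libraries. The median log2 change of 0.08 became -0.07 when only the strongest site of each gene was kept, and stayed between 0.04 and 0.11 in the other 3 settings. All 4 libraries supported 200 sites, which became 74 when summits had to lie within 50 bp, 231 within 500 bp and 180 at a score of at least 5. The promoter share of 15.7% became 26.5% with the strongest site of each gene and 8.93% when counted within 1 kb. The Paupar KD to control KD ratio of 1.37 was 1.22 to 1.56 when single libraries were left out (lowest without control KD replicate 2, highest without control KD replicate 1), where the lone library of a group gives no spread. It was 1.05 at equal list lengths, and as a share of matched sites, a setting added after seeing the data, it was 0.983. With the replicate number as a block it was 1.38 (exact p = 0.50, the smallest that 2 pairs allow). The deviations of same-numbered libraries in summit presence had a correlation of -0.00552 over the sites. This measure is weak, because 43.9% of all sites had a summit in a single library. It cannot decide whether the numbers pair the samples. The authors' calls could not be refitted without a library, because the table holds group means.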
